A study of Rattus norvegicus with 6 samples.

Results

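The sodium-potassium pump genes described here are Atp1b1, Atp1b2, Atp1b3 and Atp1a4, chosen by symbol, ignoring case, from a gene table of rat retina. All 4 had exactly 1 row each, of 26406 rows in all. The series holds neural retina from 6 samples in 3 groups of 2, all at postnatal day 60: wild-type rats of the pigmented Long Evans strain that had a sham operation; rats of the Royal College of Surgeons (RCS) strain, whose photoreceptors degenerate through an inherited Mertk defect, that had the same; and RCS rats that received human neural progenitor cells under the retina. Surgery was at postnatal day 21, sham eyes received only the medium that carries the cells, and the RNA came from the retinal part with the graft or its counterpart. The table gives a single FPKM per gene (fragments scaled to transcript length and to the number of mapped fragments) and its columns name no sample, so each value below comes from 1 library or a pool, without replicates. No group can be compared, and the values compare genes with one another within rat retinal RNA of this series.

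The pump is a heterodimer that uses ATP to move sodium out of the cell and potassium in. Its alpha subunit binds ATP and carries the ions, its beta subunit is a glycoprotein needed for folding and delivery to the plasma membrane, and small FXYD proteins adjust its ion affinity. In the retina the pump in the inner segments of photoreceptors expels the sodium that enters through the light-sensitive channels of the outer segment in darkness, which makes it one of the main consumers of ATP in the tissue. Atp1b2, also called AMOG (adhesion molecule on glia), additionally acts in adhesion between neurons and glia. Atp1a4 encodes a catalytic isoform best known from sperm.

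Promoters from RefSeq are shown for Atp1b2, Atp1b3 and Atp1a4, which include the highest and the lowest of the 4 by FPKM. The promoter set used here holds none for Atp1b1. Each runs from 250 bases before the RefSeq start to 50 bases after it, 5′ to 3′, in build GRCr8. Capitals mark matches, on either strand, to the TATA box (TATAAA), the CCAAT box (CCAAT), the GC box (GGGCGG) and a core bound by the photoreceptor factor CRX (TAATCC); no match of one overlaps a match of another.
Atp1b2, chr10:54823659-54823958, minus strand: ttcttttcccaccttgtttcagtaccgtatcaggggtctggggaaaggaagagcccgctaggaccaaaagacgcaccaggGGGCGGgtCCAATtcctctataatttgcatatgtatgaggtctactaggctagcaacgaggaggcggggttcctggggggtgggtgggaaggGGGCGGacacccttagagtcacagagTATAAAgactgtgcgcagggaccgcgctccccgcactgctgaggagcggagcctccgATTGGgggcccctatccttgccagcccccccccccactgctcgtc
Atp1b3, chr8:105821102-105821401, minus strand: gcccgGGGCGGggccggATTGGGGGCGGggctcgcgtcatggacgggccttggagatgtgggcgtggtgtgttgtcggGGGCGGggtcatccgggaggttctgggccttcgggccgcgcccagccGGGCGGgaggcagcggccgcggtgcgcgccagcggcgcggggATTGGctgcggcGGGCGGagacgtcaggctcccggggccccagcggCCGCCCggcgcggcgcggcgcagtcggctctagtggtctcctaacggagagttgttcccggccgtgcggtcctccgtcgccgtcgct
Atp1a4, chr13:87252005-87252304, minus strand: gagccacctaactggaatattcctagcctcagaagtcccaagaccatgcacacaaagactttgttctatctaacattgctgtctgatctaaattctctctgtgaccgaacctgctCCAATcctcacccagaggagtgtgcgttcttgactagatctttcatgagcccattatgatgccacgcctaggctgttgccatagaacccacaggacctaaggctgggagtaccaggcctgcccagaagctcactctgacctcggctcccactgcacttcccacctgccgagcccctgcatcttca
The windows differ in composition. The Atp1b2 window has 60.3% G and C, with 1 TATA box that begins 52 bases before the start, 2 GC boxes and 2 CCAAT boxes. The Atp1b3 window has 77.7% G and C, a higher share than in 98.2% of all 33469 promoters, and holds 6 GC boxes, 2 CCAAT boxes and no TATAAA. The Atp1a4 window has 52.3% G and C, close to the median of 51.7%, with 1 CCAAT box, no TATA box and no GC box. The CRX core occurs in none of the 3 windows. Among all 33469 promoters, 14.2% hold TATAAA, 37.5% CCAAT, 33.1% GGGCGG and 7.17% TAATCC. These letter matches are descriptions of the windows, and no value in the table measures binding to them.

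Among the 4 genes the beta subunits were abundant and the catalytic isoform Atp1a4 was listed below 1 FPKM. Atp1b2 was listed at 334 FPKM, with a deposited confidence interval of 327 to 340. Atp1b1, the beta subunit found in most tissues, was listed at 120 FPKM (115.9 to 125). Atp1b3, a further beta isoform, was listed at 42.3 FPKM (39.4 to 45.2). These 3 intervals do not overlap, so the order Atp1b2, Atp1b1, Atp1b3 is clear of the error the deposited bounds describe. Atp1a4 was listed at 0.263 FPKM (0.101 to 0.425), the only one of the 4 below 1 FPKM. That level was reached by 61.0% of all 19623 symbols, whose median was 3.17 FPKM. Fewer cells that express a gene and less RNA per cell cannot be told apart in such tissue RNA.

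**Figure D1:**
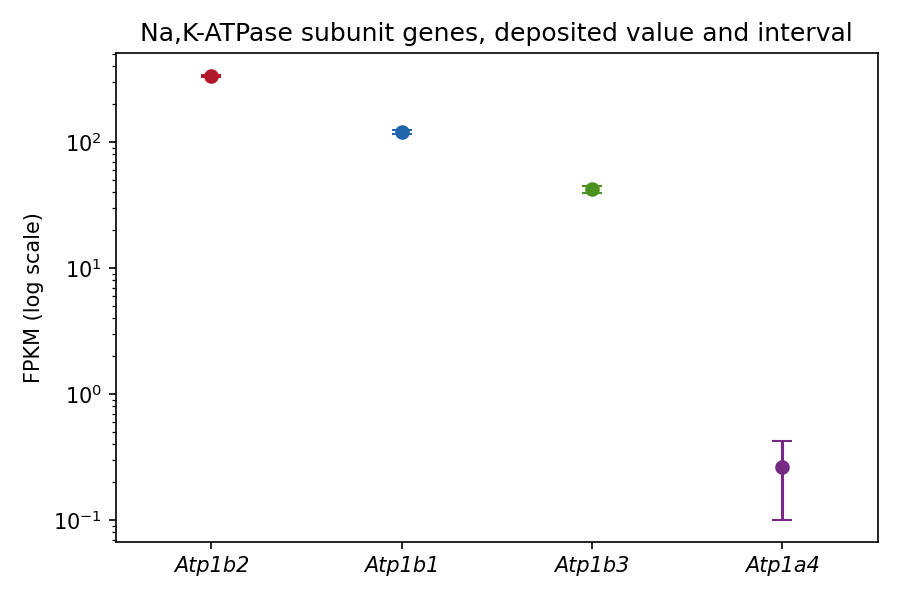
FPKM of the 4 Na,K-ATPase subunit genes on a log axis; points are the deposited values and bars the deposited confidence intervals, with no replicates. The 3 beta subunit genes lie between 42.3 and 334 FPKM with separate intervals, and Atp1a4 lies at 0.263 FPKM.

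The number of fragments behind each value follows from its interval if the upper bound lies 2 standard errors above the FPKM and reflects counting error alone. On that reading Atp1b2 rested on 11391 fragments, Atp1b1 on 2886, Atp1b3 on 842 and Atp1a4 on 10.5. This reading is an assumption for all 4 genes, and the 10.5 of Atp1a4 is not a whole number of fragments. The upper bound lay 1.87% above the FPKM for Atp1b2, 3.72% for Atp1b1, 6.89% for Atp1b3 and 61.7% for Atp1a4. The level of Atp1a4 is therefore known only roughly, and the spread between libraries is not known for any of the 4.

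Ratios were formed for all 6 pairs, with 95% counting intervals from the same bounds. Atp1b2 was 2.77 times Atp1b1 (2.66 to 2.89) and 7.88 times Atp1b3 (7.35 to 8.46). Atp1b1 was 2.84 times Atp1b3 (2.63 to 3.07). The beta subunits thus followed each other in steps of like size, 1.47 and 1.51 on the log2 scale. Against Atp1a4, Atp1b3 was 161 times as high (87.6 to 296), Atp1b1 458 times (250 to 839) and Atp1b2 1269 times (693 to 2324). The ratios to Atp1a4 depend on the scale: with a pseudocount of 1 FPKM on both genes they were 34.3, 96.1 and 265 in the same order, and by implied fragments, not scaled to length, 80.2, 275 and 1085. By implied fragments Atp1b2 was 13.5 times Atp1b3. All 6 intervals lay above 1; they cover counting error and not the spread between animals or libraries.

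**Figure D2:**
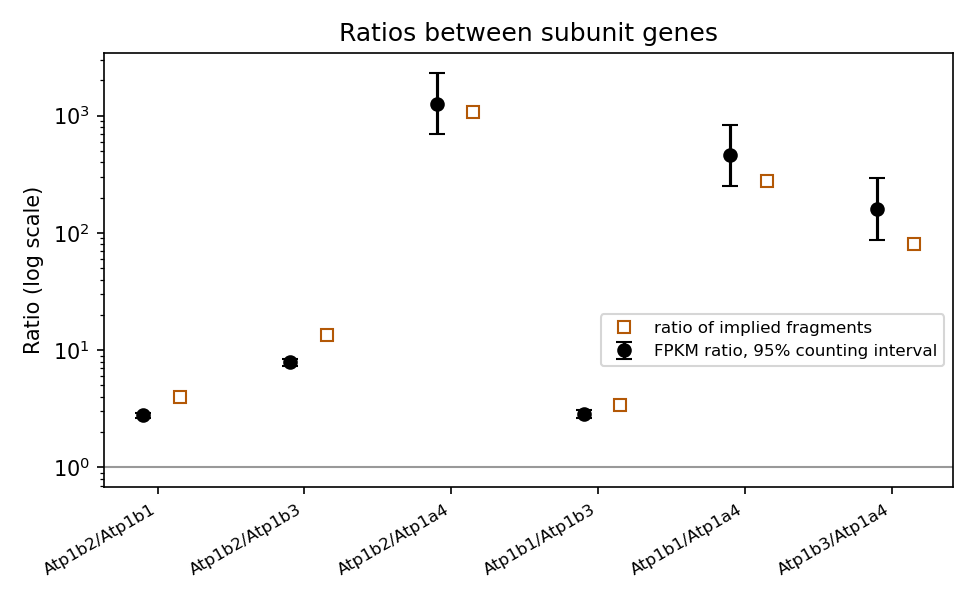
Ratios between the 4 genes for all 6 pairs on a log axis; filled circles are FPKM ratios with 95% counting intervals, open squares the ratios of implied fragments, which are not scaled to length. Every ratio lies above 1, from 2.77 for Atp1b2 over Atp1b1 to 1269 for Atp1b2 over Atp1a4.

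Together the 3 beta subunit genes came to 496 FPKM (95% counting interval 488 to 505), which is 0.145% of the summed FPKM of the table. Atp1b2 made up 67.2% of that sum (66.4% to 68.04%), Atp1b1 24.2% (23.5% to 24.99%) and Atp1b3 8.53% (7.98% to 9.07%). These are shares of transcript per length and do not measure protein. By implied fragments, with no scaling to length, the shares were 75.3% for Atp1b2, 19.1% for Atp1b1 and 5.57% for Atp1b3. Atp1b4, a relative of the beta subunits that in placental mammals is a nuclear membrane protein of muscle and not a pump subunit, was listed at 0.0205 FPKM (0 to 0.0614), an implied 1 fragment.

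Among all rows, 87 were higher than Atp1b2, which exceeded 99.7% of rows. Atp1b1 had 341 rows above it (98.7% of rows were lower) and Atp1b3 had 1437 (94.6% lower). Atp1a4 had 16024 rows above it, and 39.3% of rows were lower. Next to Atp1b2 in level were PTMA at 330.1 FPKM and Reep6, a membrane-trafficking gene of rod photoreceptors, at 335 FPKM. Atp1b1 stood between Rgs9bp, the anchor of the transducin GTPase complex, at 120.3 FPKM and the cytoskeletal actin gene Actg1 at 120.4 FPKM. Atp1b3 stood between Crot at 42.3 FPKM and Abhd12 at 42.3 FPKM. Likeness here is closeness of level in 1 column, and the intervals of 16 other rows with a symbol overlap that of Atp1b2, 82 that of Atp1b1, 522 that of Atp1b3 and 2830 that of Atp1a4, out of 20601 rows with a symbol.

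**Figure D3:**
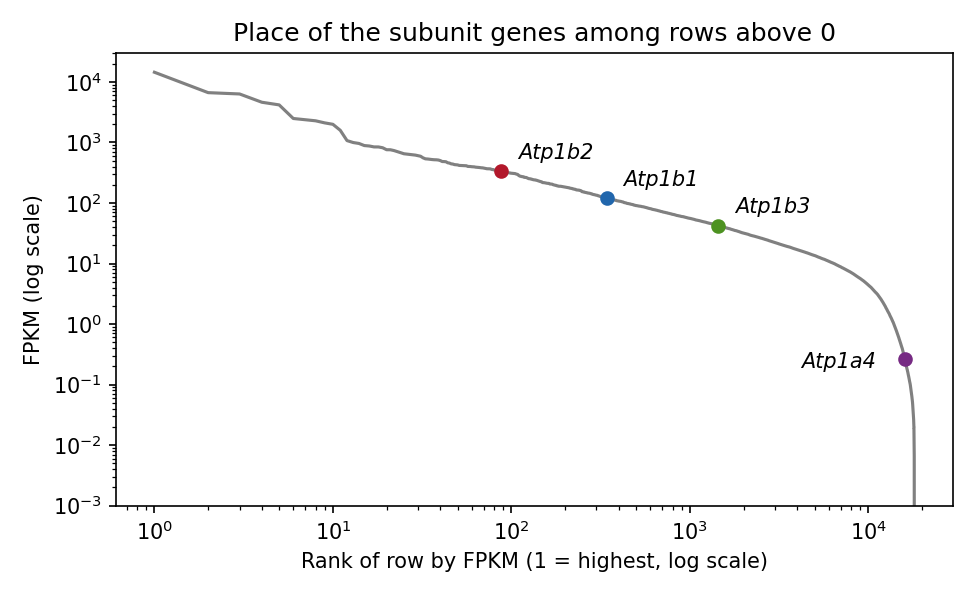
FPKM of every row above 0 against its rank, both axes logarithmic, with the 4 subunit genes marked. Atp1b2, Atp1b1 and Atp1b3 lie on the upper part of the curve, behind 87, 341 and 1437 higher rows, and Atp1a4 lies on its steep lower end.

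The positions below are those the table gives, in build rn5. Atp1b2 (ENSRNOG00000011227) lies at 55951262 to 55957495 of chromosome 10, a span of 6233 bases, and no other row overlaps it. The row after it is Shbg, listed at 2.38 FPKM (1.55 to 3.21). Atp1b1 (ENSRNOG00000002934) lies at 87621448 to 87641967 of chromosome 13. The 181 bases at its low-coordinate end overlap the row of Nme7, which was at 12.3 FPKM (10.3 to 14.3). A small number of reads could therefore be credited to either gene. Whether strand was used in counting is not given in the sources used here. Dpt, the row after Atp1b1, was listed at 0. Atp1b3 (ENSRNOG00000011501) lies at 103638323 to 103669634 of chromosome 8 with no overlapping row, and its neighbour Tfdp2 was at 4.16 FPKM (3.37 to 4.95). RefSeq names a pseudogene of Atp1b3, Atp1b3-ps2, that has no row under that symbol, so reads from such a copy, if any, could sit in the Atp1b3 value. Atp1a4 (ENSRNOG00000032378) lies at 95126899 to 95163433 of chromosome 13 with no overlapping row, and Casq1, a neighbouring muscle gene, was at 1.87 FPKM (1.23 to 2.51). Each of the 3 beta subunit rows was thus well above the neighbouring rows named here.

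The FXYD regulators were lower than every beta subunit. Of 7 genes, 5 reached 1 FPKM, beside 61.0% of all symbols, and the median of all 7 was 5.23 FPKM. Fxyd6 led at 19.1 FPKM (10.8 to 27.5), followed by Fxyd1 (phospholemman) at 15.1 FPKM (10.99 to 19.2) and Fxyd3 at 6.49 FPKM (3.59 to 9.39). The intervals of Fxyd6 and Fxyd1 overlap, so their order is not resolved. Fxyd7, a brain-enriched member, was at 5.23 FPKM (3.41 to 7.05) and Fxyd5 (dysadherin) at 3.43 FPKM (2.09 to 4.78). Fxyd4, known from kidney collecting duct and colon, was lowest at 0.140 FPKM (0 to 0.338), an implied 2 fragments. FXYD2, the gamma subunit of the kidney pump, was at 0.185 FPKM (0 to 0.704). Its implied number, 0.507, is less than 1 fragment, so reading its interval as counting error alone is doubtful. Atp1b2 was 17.4 times Fxyd6 (11.4 to 26.8), and Atp1b3, the lowest of the beta subunits, was 2.21 times Fxyd6 (1.43 to 3.41). Each FXYD value rests on at most 54 implied fragments. Fxyd6 rested on 21, fewer than Fxyd1 (54), Fxyd7 (33) and Fxyd5 (26), so its first place depends on the scaling to length. The ratios to Fxyd6 depend on it too, since Atp1b2 rested on 11391 implied fragments and Atp1b3 on 842.

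The nearest relatives of the pump and, apart from these, the NKAIN genes were scarce. The gastric and colonic proton-potassium pumps share its alpha-beta build: Atp4a was at 0.251 FPKM (0.0924 to 0.410), an implied 10 fragments, and Atp4b and Atp12a were listed at 0. The interval of Atp4a overlaps that of Atp1a4. Of the NKAIN genes, which encode membrane proteins that bind the beta1 subunit, 3 of 4 had a row and all were under 1 FPKM, led by Nkain3 at 0.911 FPKM (0.406 to 1.42), with Nkain1 at 0.441 FPKM (0 to 1.06) and Nkain4 lowest at 0.306 FPKM (0 to 0.740).

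The 18 other P-type ATPases include calcium, copper and lipid pumps and the Atp13a genes. Of these, 13 reached 1 FPKM, beside 61.0% of all symbols, and the median of all 18 was 4.27 FPKM. ATP2A2, the calcium pump of the endoplasmic reticulum, was at 61.2 FPKM (58.4 to 64.003), Atp2b1, a calcium pump of the plasma membrane, at 59.7 FPKM (57.1 to 62.3) and Atp8a2, a lipid flippase of photoreceptors and neurons, at 29.1 FPKM (23.9 to 34.2). Atp2c2 was lowest at 0.0289 FPKM (0 to 0.0866). Atp1b2 was 5.45 times ATP2A2 (5.20 to 5.72) and Atp1b1 1.97 times (1.86 to 2.08), whereas Atp1b3 was below it, at 0.692 times (0.638 to 0.750). Atp1a4 was lower than 15 of the 18, and lower than 13596 of all 19623 symbols. Its interval overlaps those of Atp2a1 (0.211 to 0.634), Atp13a4 (0.192 to 0.555), Atp13a5 (0.0833 to 0.336) and Atp2a3 (0.0198 to 0.247). Its place among these is not resolved.

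Genes that let sodium in, or that use the gradient the pump builds, were set beside the beta subunits. The 6 photoreceptor cation channel and exchanger genes all exceeded Atp1b3, 4 of them exceeded Atp1b1 and none exceeded Atp1b2. Of all 19623 symbols, 1159 were above Atp1b3, 277 above Atp1b1 and 67 above Atp1b2. Cnga1, the rod channel subunit through which sodium enters, was at 293 FPKM (286 to 300.1), Slc24a1, the rod sodium-calcium-potassium exchanger, at 251 FPKM (244 to 257), Cngb1, the second subunit of the rod channel, at 138 FPKM (134 to 141) and Kcnv2, a modulatory potassium channel subunit of photoreceptors, at 55.7 FPKM (53.8 to 57.6). Atp1b2 was 1.14 times Cnga1 (1.11 to 1.17) and 1.33 times Slc24a1 (1.29 to 1.37). All 17 sodium-driven and related transporters reached 1 FPKM, beside 61.0% of all symbols, with a median of 21.4 FPKM. Slc6a6, the taurine transporter, was at 161 FPKM (157 to 166), Slc12a5, a neuronal potassium-chloride cotransporter, at 88.6 FPKM (85.4 to 91.7), Slc1a3, a glutamate transporter of Müller glia, at 58.4 FPKM (55.8 to 60.9) and Slc4a4 lowest at 1.01 FPKM (0.696 to 1.33). Slc6a6 was the only one of the 17 above Atp1b1, and 5 of the 17 were above Atp1b3. The lowest of these 5, at 43.7 FPKM (40.7 to 46.8), has an interval that overlaps that of Atp1b3, so its place is not resolved.

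Among 7 genes for anchors and modulators of the pump, 6 reached 1 FPKM, beside 61.0% of all symbols. The median of all 7 was 23.6 FPKM. Ank2, an ankyrin that ties membrane proteins to the spectrin skeleton, was at 70.3 FPKM (66.7 to 73.9), the kinase gene Sgk1 at 64.3 FPKM (60.1 to 68.6) and the spectrin gene Sptbn1 at 59.4 FPKM (57.7 to 61.005). These 3 lay between Atp1b3 and Atp1b1. Sik1 was lowest at 0.499 FPKM (0.242 to 0.757).

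**Figure D4:**
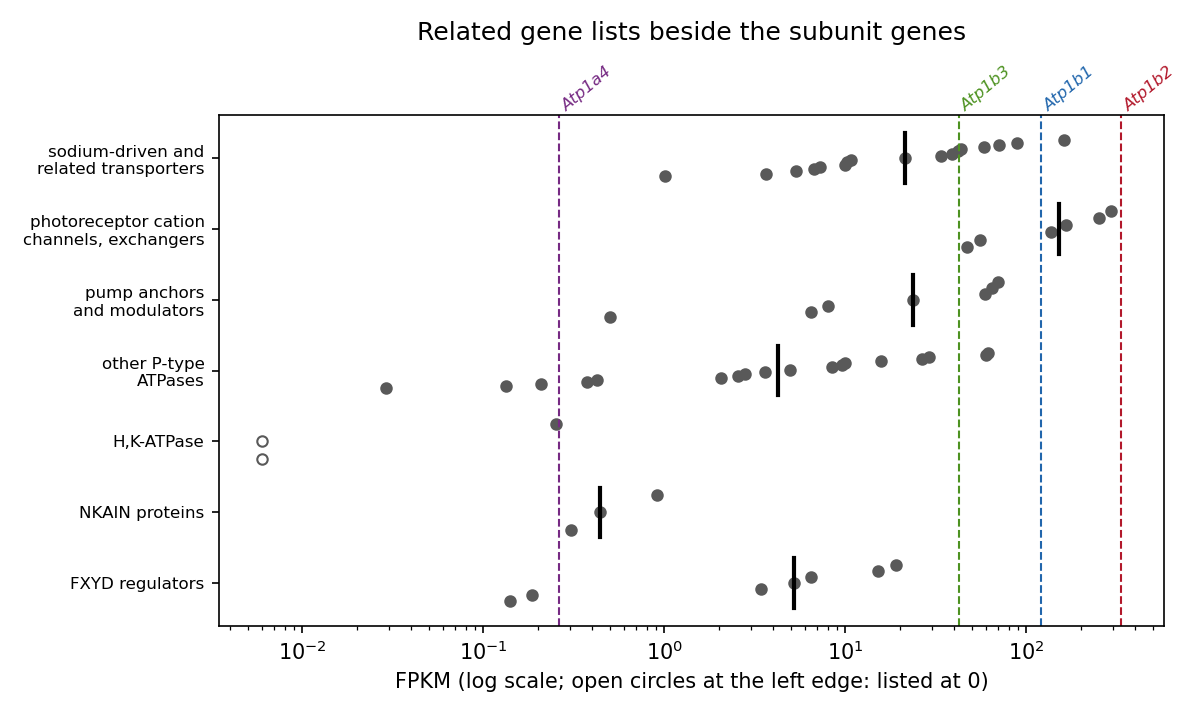
FPKM of the genes of 7 related lists on a log axis; each point is a gene, black bars are list medians (no bar for H,K-ATPase, whose median is 0), open circles are genes listed at 0, and dashed lines mark the 4 subunit genes. No point lies to the right of Atp1b2, and all 7 FXYD genes lie to the left of Atp1b3.

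Markers of the cells that could contribute to this RNA were all above 0, those of tissues beside the neural retina included. Of all 26406 rows, 18154 were above 0, so a value above 0 alone does not show that a tissue was present. The 4 rod markers ran from 633 to 6316 FPKM, the 3 Müller glia markers from 27.9 to 617 FPKM and the 3 cone markers from 39.4 to 58.4 FPKM. Markers of retinal pigment epithelium ran from 20.7 to 152 FPKM, those of blood from 10.3 to 13.2 FPKM and those of microglia from 1.37 to 5.41 FPKM. Of the 2 lens markers Cryaa was at 427 FPKM and Mip at 1.60 FPKM. Atp1b2 was below all 4 rod markers and between the Müller glia markers Glul at 617 FPKM and Rlbp1 at 114 FPKM. It was above all 3 cone markers. Markers of bipolar, amacrine and ganglion cells and of endothelium were also all below Atp1b2, the highest of them at 181 FPKM. A place in this order does not tell which cells hold the RNA. The part of each cell type in the values of the pump genes was not tested.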

How the data were processed

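Neural retina RNA of 6 samples was sequenced from libraries made with an Ion Torrent total RNA kit, per the labels' protocols. The authors deposited 1 gene table in the Cufflinks format with FPKM values and a lower and upper bound per gene, per the file headers; Cufflinks 2.0.8 and build rn5 are named in the submitters' processing notes. No source used here gives the aligner, annotation release, confidence level, pooling or strand setting. The FPKM, scaled to length and depth, were used as deposited, with no pseudocount. All 26406 rows were read with Python 3.11.15, numpy 2.4.6 and pandas 2.3.3. Genes were matched by symbol, ignoring case, and every gene named had 1 row. A standard error was taken as the distance from the FPKM to its upper bound divided by 2; the squared ratio of FPKM to standard error gave the implied fragments, 6124332 over all rows. Ratio intervals (95%) were built on the log scale under a normal approximation. The script was tested on data simulated under the same counting assumption, so that test cannot check the assumption itself. The planned group comparisons were not run, because no column names a sample, and the labels do not say whether samples are separate animals. Named are the members, the 3 highest and the lowest gene of each list, passing to the next where one is not reported, and neighbours by position and level; Fxyd2, Fxyd5, Fxyd7 and the markers named were added after their values were seen. Some genes the rule covers are not reported here. The members and lists were chosen with earlier results of these data known.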

Additional observations from a re-analysis of the deposited data

How the results depend on the processing

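Of 62 recalculations, 42 stayed within the interval of the value reported, and 30 of these gave the identical value, most of them by construction. Taking the highest row per symbol, keeping only rows with status OK and reading the bounds as a normal 95% interval could not change a value, since every member has 1 row with status OK and the bounds set only the error; they say nothing about stability. With exact symbols only, the FXYD median was 5.86 FPKM and that of the other P-type ATPases 3.62 FPKM. Ratios of implied fragments were 3.95 for Atp1b2 over Atp1b1, 13.5 for Atp1b2 over Atp1b3, 3.43 for Atp1b1 over Atp1b3 and 80.2 for Atp1b3 over Atp1a4, and the shares of the beta sum became 75.3% for Atp1b2, 19.1% for Atp1b1 and 5.57% for Atp1b3; fragments are not scaled to length. A pseudocount of 1 FPKM lowered the ratios to Atp1a4, which it outweighs, to 265 for Atp1b2, 96.1 for Atp1b1 and 34.3 for Atp1b3. Among rows above 0 only, Atp1b2, Atp1b1, Atp1b3 and Atp1a4 exceeded 99.5%, 98.1%, 92.1% and 11.7% of rows, and Atp1a4 exceeded 32.3% of rows with a symbol. Ranked by implied fragments, Atp1b2 exceeded 99.9% of rows, Atp1b1 99.2% and Atp1a4 46.1%. With members at 1 FPKM or more only, the median of the anchors and modulators was 41.5 FPKM and that of the other P-type ATPases 9.61 FPKM; the proton-potassium pumps and NKAIN genes had no member left. No direction changed. No paired analysis was possible because its 1 value per gene carries no sample name; for that reason leaving out a replicate, a pseudocount of 0.1 and the filter for group fits were not run. Values that rest on few implied fragments, such as those of Atp1a4, Atp1b4 and the NKAIN genes, are limited by counting.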
